A study of Mus musculus with 226 samples.

Results

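The cells described here were 72 Wildtype spiral ganglion neurons, 38.7% of the Wildtype neurons in the series (exact 95% interval 31.7 to 46.1%), beside 114 other Wildtype neurons and 40 that lacked Vglut3. They were chosen by measured values: at least 100 but less than 4500 counts per 1000000 counts on genes (CPM) of Calb2, the calcium-binding protein calretinin, and less than 300 CPM of Lypd1, which encodes a small membrane-anchored protein. Because Calb2 and Lypd1 chose the cells, their levels are not findings, and since every other gene was measured in the same cells, all values below are descriptions without a test. They are called Ib-like after the label proposed for them, which is held against its marker genes Calb1, Ttn, Lrrc52 and Runx1 below. The remaining 114 Wildtype neurons were 62 Calb2-high cells with 4500 CPM or more, 44 Lypd1-high cells with 300 CPM or more, and 8 cells with less than 100 CPM of Calb2 and less than 300 CPM of Lypd1. No cell had both 4500 CPM of Calb2 and 300 CPM of Lypd1.

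Spiral ganglion neurons carry signals from the hair cells of the cochlea to the brainstem. Type I neurons, the majority, receive input from inner hair cells, and in the mouse they are commonly divided into Ia, Ib and Ic, with Calb2 high in Ia, Lypd1 and the transcription factor Pou4f1 in Ic, and Calb1 (calbindin) in Ib. Type II neurons contact outer hair cells and are known for Th, Ngfr, Gata3 and Prph.

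Single neurons that carried a tdTomato reporter were placed into tubes by hand and sequenced with the full-length Smart-seq2 protocol. Wildtype cells were bhlhb5::cre/+; Ai14/+, so a Cre driver decided which neurons could be picked, and a further genotype also lacked Vglut3 (bhlhb5::cre/+; Ai14/+; Vglut3-/-), the glutamate transporter of inner hair cells. Mice were P25 to P27, and cells were labelled Apex, Middle or Base for their place along the cochlea. Each sample was 1 cell and no animal was named, so each class counts as 1 sample: no p-value is given, and intervals on summed counts and on shares of cells cover counting error only, since the reads carry no molecular identifiers.

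Depth was alike in the classes. The Ib-like cells had a median of 2.71e+06 counts on genes, against 2.55e+06 in Calb2-high and 2.70e+06 in Lypd1-high cells, and medians of 8412, 8402.5 and 8306.5 genes with a count. Ages were less even, with 50% of Ib-like, 29.03% of Calb2-high and 43.2% of Lypd1-high cells from P27. Glial markers were scarce, with a highest summed level of 45.6 CPM in an Ib-like cell and of 35.3 and 22.2 CPM in the neighbours: Sox10, Mbp and Fabp7 had 0 counts in all 72 cells, and so had all 4 blood and immune markers. Of the 5 hair cell markers Otof, Slc17a8 and Atoh1 had 0 counts, but with Pvalb and Myo7a the list summed to a median of 814 CPM per Ib-like cell (339 to 1279.5), against medians of 923 and 925 CPM in the neighbours.

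At the limits of the rule, the lowest Calb2 levels inside were 125 and 237 CPM and the nearest below were 25.8 and 21.4 CPM. At the upper limit 4465 and 4344 CPM lay inside, and 5066 and 5609 CPM outside. The highest Lypd1 levels inside were 278 and 157.5 CPM, and the lowest outside were 362 and 668 CPM. In the plot of Calb2 against Lypd1 the Ib-like cells run up to the upper Calb2 limit, and the Calb2-high cells go on beyond it.

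**Figure D1:**
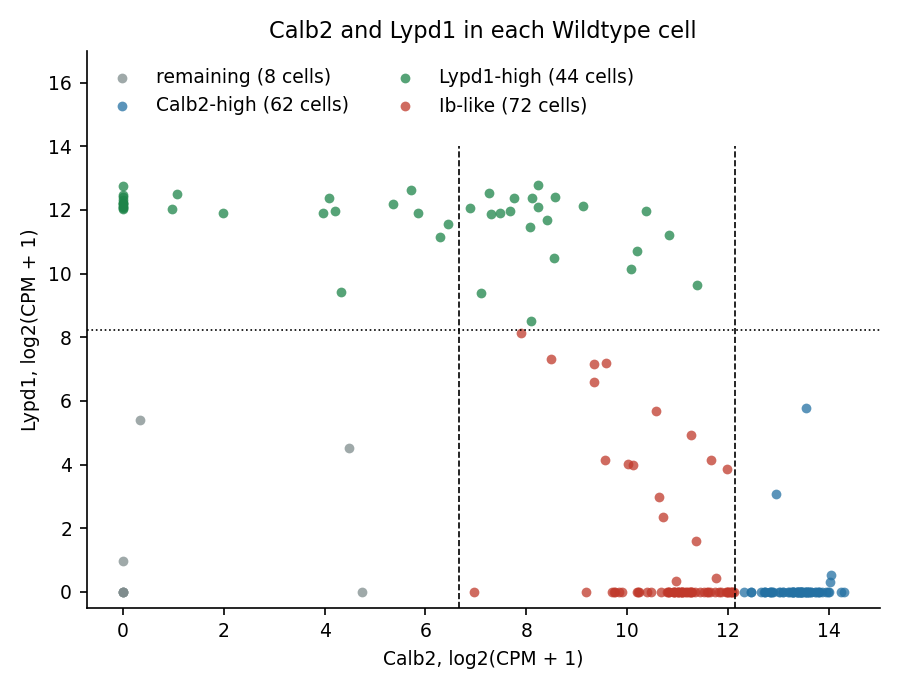
Calb2 (horizontal) and Lypd1 (vertical) in each Wildtype neuron, as log2(CPM + 1), with dashed lines at the Calb2 limits and a dotted line at the Lypd1 limit. The 72 Ib-like cells are red, the 62 Calb2-high cells blue, the 44 Lypd1-high cells green and the 8 remaining cells grey; no cell lies in the upper right corner.

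The label was carried by most but not all of the cells. At 10 CPM or more, Runx1, a transcription factor of the Runt family, was present in 70 of 72 cells (97.2%, exact 95% interval 90.3 to 99.7%), Ttn, which encodes the giant muscle protein titin, in 54 (75%, 63.4 to 84.5%), Calb1 in 51 (70.8%, 58.9 to 81.0%) and Lrrc52, an auxiliary subunit of large-conductance potassium channels, in 38 (52.8%, 40.7 to 64.7%). At least 3 of the 4 markers were present in 52 Ib-like cells (72.2%, 60.4 to 82.1%), against 3 of 62 Calb2-high and 6 of 44 Lypd1-high cells. All 4 were present in 22 cells, 3 in 30, 2 in 17, 1 in 1 and none in 2. The summed level of the 4 genes had a median of 514 CPM per cell, against 9.05 CPM in Calb2-high and 161.1 CPM in Lypd1-high cells, where it came mostly from Runx1.

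The 2 cells without a marker went against the label. In a P27 Apex neuron Calb2 was 125 CPM and all 4 Ib markers were at 0, while the type II markers were high: Th 7840 CPM, Gata3 5092 CPM and Ngfr 2993 CPM. Prph, the remaining type II marker, was at 0. The highest values in any other Ib-like cell were 0.217 CPM of Th, 954 CPM of Gata3 and 509 CPM of Ngfr. Since the rule takes in both cells, they were kept, and results that rest on them are given with and without them. The other cell was the only P25 member, from the Base. It had 0 counts of Runx1, Calb1 and Lrrc52, 1.59 CPM of Ttn, 279 CPM of Htra1, the highest in any Ib-like cell, and 230 CPM of Pcdh20, a protocadherin high in Calb2-high cells. Without both, 15 of the 16 genes above both neighbours, 5 of the 6 below both, 44 of 48 falling and 63 of 64 rising graded genes described below met the same limits; Ezr and Trim24 did not.

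Against all other Wildtype neurons, 48 of 8747 measured genes were higher in the Ib-like cells (0.549%) and 1.15% of them were lower. A gene was counted when it reached 10 CPM in the higher class and was found in at least 25% of its cells. It had to differ by a log2 fold of at least 1 after adding 1 CPM. The mean of log2(CPM + 1) over cells had to differ by at least 0.5 on the same side. The log2 folds at P26 alone and at P27 alone also had to reach 0.5 on that side. Since the rest holds cells on either side of the Ib-like range, most of what follows sets the cells against each neighbour. Against Calb2-high cells 1.95% of 8683 measured genes were higher and 1.29% lower, and against Lypd1-high cells 1.57% of 8739 were higher and 1.91% lower. Over all measured genes the median log2 fold was 0.00 and -0.01.

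The genes above both neighbours were few: 16 of 8961 genes (0.179%). They were led by 3 of the 4 proposed markers. Ttn ranged from 0 to 1565 CPM over the Ib-like cells with a median of 157.1 CPM, and its pooled level was 259 CPM (95% Poisson interval 257 to 262), with a count in 65 of 72 cells. It was 11.5 CPM in Calb2-high cells and 10.6 CPM in Lypd1-high cells, where the median cell had 0 and the highest 218.1 and 235.8 CPM. The classes overlapped, but the median Ib-like cell lay above nearly all cells of either neighbour. The log2 folds were 4.39 and 4.49, and Ttn was higher in each of the 5 sets of cells with the same age and location (log2 fold 3.50 to 7.77 and 2.17 to 7.09). Ttn lies at chr2:76703980-76982547 on the minus strand (mm10), and its exons overlap a gene on the other strand. Whether strand was used in counting is not given in the sources used here, so reads of such pairs cannot be told apart. Of the other genes described here, this also touches Lypd1, Gata3, Pcsk2, Elmo1, Runx1, Zfp52, Adora1, Ezr, Crtac1, Trim54, Ephx4, B3gat1, Hmcn1, Ncald, Ryr3, Gnao1, Cdh9, Kcnab1, Casz1 and Rgs12.

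Calb1, a calcium buffer of many neurons, had a median of 116 CPM and a highest cell of 1443 CPM, and 57 of 72 cells had a count. Its pooled level was 233 CPM (230.5 to 235), against 17.8 CPM in Calb2-high and 45.9 CPM in Lypd1-high cells. In both neighbours the median cell had 0, yet single cells reached 196.8 and 484 CPM, so the ranges overlapped. The log2 folds were 3.64 and 2.32. Calb1 lies at chr4:15881264-15908064 on the plus strand.

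Lrrc52 was low in all cells and higher in the Ib-like cells than in either neighbour. Its median was 19.4 CPM and its maximum 101.8 CPM in Ib-like cells, with a count in 45 of 72. The pooled level was 23.3 CPM, against 3.69 CPM in Calb2-high cells (9 of 62 cells with a count) and 2.62 CPM in Lypd1-high cells (6 of 44), log2 folds of 2.37 and 2.75. At P26 Lrrc52 was 15.7 CPM in Ib-like cells and 0 in the 43 Calb2-high cells. At P27 these levels were 32.1 and 13.3 CPM, and 6 of 18 Calb2-high cells had 10 CPM or more. Of these 18 cells, 14 were from the Apex, so age and location cannot be told apart. Lrrc52 lies at chr1:167445669-167466780 on the minus strand.

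The fourth marker, Runx1, did not single out the Ib-like cells. It was 122 CPM (median cell 108.2) in them, 10.3 CPM in Calb2-high cells and 142 CPM (median cell 139.1) in Lypd1-high cells. Nearly all Ib-like and Lypd1-high cells shared 1 range, above most Calb2-high cells. The log2 folds were 3.43 and -0.23, so Runx1 marked both of these classes against Calb2-high neurons.

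Among the other genes above both neighbours, Edil3 and Anxa5 were found in nearly every Ib-like cell. Edil3, which encodes a secreted integrin ligand, ranged from 9.39 to 723 CPM with a median of 221.4 CPM, against medians of 66.9 and 70.7 CPM in the neighbours. It was counted in 72 of 72 Ib-like cells, and its pooled 259 CPM compared with 88.999 and 93.5 CPM (log2 folds 1.53 and 1.46). Anxa5, the phospholipid-binding annexin A5, had a median of 313 CPM and a pooled level of 327 CPM, against 119 and 120.1 CPM (log2 folds 1.45 and 1.44). It was as high in the 8 remaining cells, at 323 CPM. Both genes varied less among Ib-like cells than Ttn and Calb1 did: the SD of log2(CPM + 1) was 1.17 for Edil3 and 1.25 for Anxa5, but 3.17 for Ttn and 3.43 for Calb1. Edil3 lies at chr13:88821472-89323223 on the plus strand and Anxa5 at chr3:36448923-36475894 on the minus strand.

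Other genes of this group were on in a minority of cells. Zfp52, a zinc finger gene, was 46.3 CPM with a count in 28 of 72 cells, against 11.5 and 9.61 CPM. Spry3, an inhibitor of receptor tyrosine kinase signalling, was 29.5 CPM with a count in 24 cells, against 6.50 and 2.02 CPM. Tmem196, a membrane protein, was broader, with 58 of 72 cells and 47.9 CPM against 16.1 and 20.9 CPM. Htr2c, a serotonin receptor, and Adora1, an adenosine receptor, were 10.4 and 12.6 CPM in Ib-like cells and below 4 CPM in both neighbours, but 46.7 and 65.9 CPM in the 8 remaining cells, so neither was higher against all other Wildtype cells. Ezr, which links membrane to actin, was 22.5 CPM against 9.74 and 4.22 CPM, but its log2 fold over Calb2-high cells was 0.95 without the Th-positive cell, against 1.13 with it. Ppm1d, Rab23, Ankrd16 and Slc29a3 were between 12.4 and 17.6 CPM, and below 8 CPM in both neighbours. Of the 22 other settings tried, Ttn and Calb1 were above both neighbours in all 22, Anxa5 in 21, Lrrc52, Edil3 and Zfp52 in 20, and the other 9 named here in 10 to 17. Without the P27 Middle cells, 7 of the 16 genes were still above both, namely Anxa5, Calb1, Edil3, Ezr, Lrrc52, Ttn and Zfp52.

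**Figure D2:**
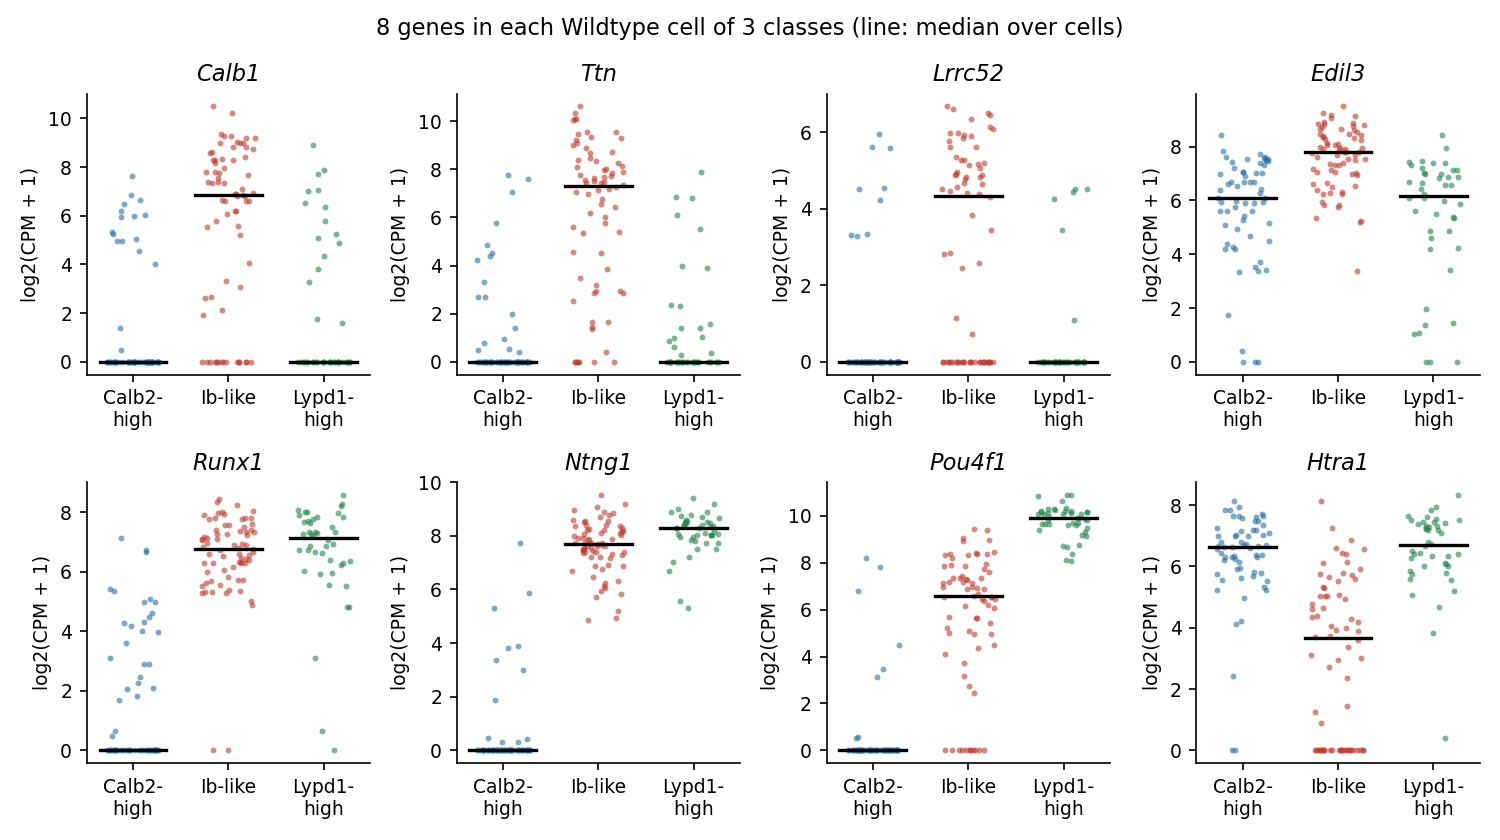
Each point is 1 Wildtype cell of the Calb2-high (62 cells), Ib-like (72) or Lypd1-high (44) class, plotted as log2(CPM + 1), with a black line at the class median. Calb1, Ttn, Lrrc52 and Edil3 had their highest median in the Ib-like cells, Runx1 and Ntng1 were alike in Ib-like and Lypd1-high cells, Pou4f1 was intermediate, and Htra1 was lowest in the Ib-like cells.

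The 250 bases before the start of 3 of these genes are shown because Ttn and Lrrc52 led the group and Zfp52 was the only member with a match to the core motif that Runt family factors such as Runx1 are known to bind. They are from RefSeq (GRCm38.p6), written 5′ to 3′ along the gene's strand, with a match to the motif TGTGGT or its reverse ACCACA in capitals.
Ttn, chr2:76982548-76982797, minus strand: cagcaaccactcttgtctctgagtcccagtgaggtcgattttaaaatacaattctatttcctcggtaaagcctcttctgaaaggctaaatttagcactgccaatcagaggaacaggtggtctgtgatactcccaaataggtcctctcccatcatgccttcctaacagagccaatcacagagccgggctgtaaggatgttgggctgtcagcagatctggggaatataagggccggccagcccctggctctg
Lrrc52, chr1:167466781-167467030, minus strand: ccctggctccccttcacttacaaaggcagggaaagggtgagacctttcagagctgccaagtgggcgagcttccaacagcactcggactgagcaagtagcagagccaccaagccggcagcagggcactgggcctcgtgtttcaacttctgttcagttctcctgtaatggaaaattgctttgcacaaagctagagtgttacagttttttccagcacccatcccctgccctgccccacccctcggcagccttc
Zfp52, chr17:21535289-21535538, plus strand: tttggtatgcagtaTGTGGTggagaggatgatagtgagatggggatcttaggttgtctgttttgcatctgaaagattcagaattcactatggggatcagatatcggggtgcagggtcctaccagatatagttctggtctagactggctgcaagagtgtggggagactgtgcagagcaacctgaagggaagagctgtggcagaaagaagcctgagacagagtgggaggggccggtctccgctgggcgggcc
The match in Zfp52 starts 236 bases before the gene's start. Of the 16 genes above both neighbours, 12 had an entry, and 1 of these held the motif on either strand, against 14.05% of 32851 promoter windows of the same length. A match is only a run of letters, and its absence says nothing on binding.

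Only 6 of 8961 genes were below both neighbours (0.067%). Htra1, a secreted serine protease, was the clearest. It ranged from 0 to 279 CPM over the Ib-like cells with a median of 11.6 CPM, against medians of 98.1 CPM in Calb2-high and 103 CPM in Lypd1-high cells. It was counted in 46 of 72 Ib-like cells, 60 of 62 Calb2-high and 44 of 44 Lypd1-high cells. The neighbours were nearly the same in level, and most Ib-like cells lay below both. The pooled levels were 27.8 CPM (27.1 to 28.5), 107 and 111.01 CPM, log2 folds of -1.91 and -1.96, and Htra1 was lower in 5 of 5 sets against each. It lies at chr7:130936111-130985660 on the plus strand.

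Ebf1, a transcription factor of early B cells and of neurons, had a median of 84.3 CPM in Ib-like cells, against 204.8 and 250.7 CPM in the neighbours. Its pooled levels were 102.2, 218.7 and 241.7 CPM, log2 folds of -1.09 and -1.23. The other 4 were low everywhere. Nfib, a transcription factor of the nuclear factor I family, was 4.595 CPM against 24.007 and 15.4 CPM. Crtac1, a secreted matrix protein, was 5.38 CPM against 16.4 and 23.5 CPM. Ssfa2 was 3.93 CPM against 10.4 and 21.99 CPM, and Trim24, a nuclear receptor cofactor, 4.94 CPM against 17.9 and 11.0 CPM. Htra1 was below both neighbours in each of the 22 other settings, Ebf1 in 18 and the other 4 in 9 to 17.

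Intermediate genes were counted under limits of their own. A gene was called graded when the neighbours differed by the limits above with a log2 fold of at least 2. The Ib-like cells had to lie between them, at least 0.5 from each in pooled level and in mean log2(CPM + 1) over cells. From Calb2-high to Lypd1-high cells 48 genes fell in this way (0.536% of 8961) and 64 rose (0.714%). At P26 alone the counts were 52 and 76, and at P27 alone 56 and 65, but these were only in part the same genes. Of the 48 falling genes 36 were graded at P26 alone and 35 at P27 alone. Of the 64 rising genes the numbers were 56 and 38. Calb2 and Lypd1 are among them by the choice of cells. Of all genes that differed that strongly between the neighbours, 56.9% were graded.

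**Figure D3:**
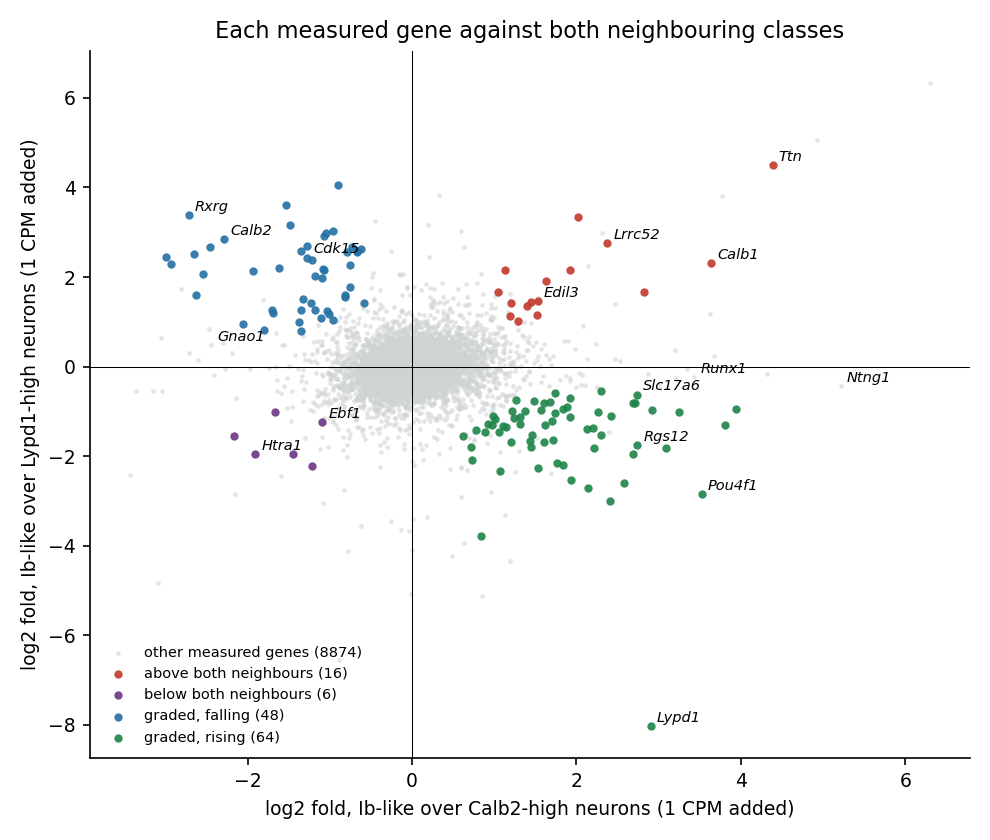
Each point is 1 measured gene, with its log2 fold of Ib-like over Calb2-high cells on the horizontal axis and over Lypd1-high cells on the vertical axis, both with 1 CPM added. The 16 genes above both neighbours lie in the upper right, the 6 below both in the lower left, and the 48 falling and 64 rising graded genes in the other corners. Grey points had none of these patterns. They include genes that met the limits against 1 neighbour only, such as Ntng1 and Runx1, and genes that missed them, such as Th, which was high in 1 cell.

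Among the genes that fell towards Lypd1-high cells, Rxrg, the retinoid X receptor gamma and a marker of Ia neurons, was 67.7 CPM in Calb2-high cells (56 of 62 with a count), 9.45 CPM in Ib-like cells (23 of 72) and 0 in Lypd1-high cells. The log2 fold of Ib-like over Calb2-high cells was -2.72, and with 3 counts over the Lypd1-high class as the floor, Rxrg was at least 378-fold higher in Ib-like than in Lypd1-high cells. B3gat1, which makes the HNK-1 carbohydrate epitope, was 71.6, 12.3 and 1.09 CPM in the same order, with a count in 62, 52 and 6 cells. Dok5, an adaptor of receptor tyrosine kinases, was 45.5, 4.85 and 0.075 CPM, Plin2, a coat protein of lipid droplets, 56.4, 6.55 and 0.542 CPM, and Ephx4, an epoxide hydrolase family member, 38.95, 12.9 and 0.142 CPM. Trim54, a microtubule-binding ring finger protein of muscle, was 34.96, 4.73 and 0 CPM. Chrna4, a nicotinic acetylcholine receptor subunit, was 13.8, 5.91 and 0.741 CPM. Myl1, a myosin light chain, met the limits only with the Th-positive cell, which had 1697 CPM where no other Ib-like cell passed 25.1 CPM.

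An intermediate pooled level can come from a lower level in each cell or from fewer cells with the gene. Cdk15, a little-studied kinase chosen after its values were seen, was intermediate within cells. It had a count in 70 of 72 Ib-like cells with a median of 49.007 CPM, and pooled levels of 146 CPM in Calb2-high, 59.5 in Ib-like and 10.2 CPM in Lypd1-high cells. For most graded genes the share of cells was intermediate too. The median falling gene was counted in 80.6% of Calb2-high, 45.8% of Ib-like and 14.8% of Lypd1-high cells, and the median rising gene in 20.97%, 45.1% and 86.4%. The share of cells lay between those of the neighbours for 46 of 48 falling and 63 of 64 rising genes. The level within counted cells was lower as well: its median lay below that of the neighbour with the higher level for 46 of 48 falling and 59 of 64 rising genes. Only 10 falling and 16 rising genes were counted in 75% or more of the Ib-like cells.

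Of the genes that rose towards Lypd1-high cells, Pou4f1 is a POU-domain transcription factor of sensory neurons. In Ib-like cells it went from 0 to 700.0 CPM with a median of 93.8 CPM and a count in 61 of 72 cells. In Lypd1-high cells it went from 268 to 1901 CPM with a median of 958 CPM and a count in 44 of 44 cells. Calb2-high cells had a count in 8 of 62 and a highest cell of 291 CPM. Ib-like cells thus ranged from the absence seen in most Calb2-high cells up to the lower part of the Lypd1-high range. The pooled levels were 11.2, 139.4 (137.7 to 141.04) and 1014 CPM, and the Ib-like cells were 3.52 above and 2.85 below the neighbours on the log2 scale. Pou4f1 lies at chr14:104461676-104467999 on the minus strand.

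The distance of the Ib-like cells from the Calb2-high cells differed between the ages, whose cells also came from other locations. For Pou4f1 the log2 fold was 6.89 at P26 and 1.80 at P27, and for Slc17a6, a vesicular glutamate transporter, 5.04 and 1.16. The Calb2-high cells were 1 Apex, 24 Middle and 18 Base cells at P26, but 14 Apex and 4 Middle cells at P27. The higher Calb2-high levels of P27 were those of the Apex cells. Pou4f1 was 51.3 CPM in the 14 P27 Apex cells and 0 in the 4 P27 Middle cells, and Slc17a6 was 243 and 5.10 CPM. In the Middle cells of P26 they were 0.0176 and 13.7 CPM. Ttn was likewise 30.95 CPM in the P27 Apex cells, and 0.200 CPM in the Middle at P27 against 6.85 CPM at P26. Among the Ib-like cells Pou4f1 was 114 CPM in the P27 Apex and 156.9 CPM in the P27 Middle. With 1 Calb2-high Apex cell at P26, age, location and animal cannot be told apart for these cells.

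Slc17a6 was 60.9 CPM in Calb2-high cells, 411 CPM in Ib-like cells (71 of 72 with a count, median 417) and 633 CPM in Lypd1-high cells (median 598), nearer to the latter. Mgat4c, a glycosyltransferase family gene, was 0, 4.31 and 41.4 CPM, Hmcn1, an extracellular matrix protein, 0.619, 8.67 and 57.9 CPM, and Khdrbs2, an RNA-binding splicing regulator, 0.3002, 10.1 and 38.05 CPM. Ncald, a calcium sensor, was 0.344, 17.8 and 44.97 CPM, and Nalcn, the sodium leak channel, 0.400, 20.5 and 40.7 CPM. Mstn, the growth factor myostatin, was 0, 3.42 and 27.9 CPM. Genes that were counted in most Ib-like cells and rose, chosen after their values were seen, were Rbfox3, the neuronal splicing factor NeuN (11.9, 41.4 and 130.2 CPM), Pcsk2, a prohormone convertase (30.98, 86.1 and 303 CPM), and Elmo1, a regulator of Rac signalling (66.04, 202.6 and 356 CPM).

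A position was computed for each gene that differed so between the neighbours, 0 being the Lypd1-high and 1 the Calb2-high level on the log2(CPM + 1) scale. The median was 0.55 for the 80 falling and 0.49 for the rising genes. The position lay from 0.25 to 0.75 for 58.4% of them, and was nearer to each end for 41 genes (20.8%). Calb2 and Lypd1, which chose the cells, are among these genes. All were picked for their difference between the neighbours, so a position between them follows in part from the choice.

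**Figure D4:**
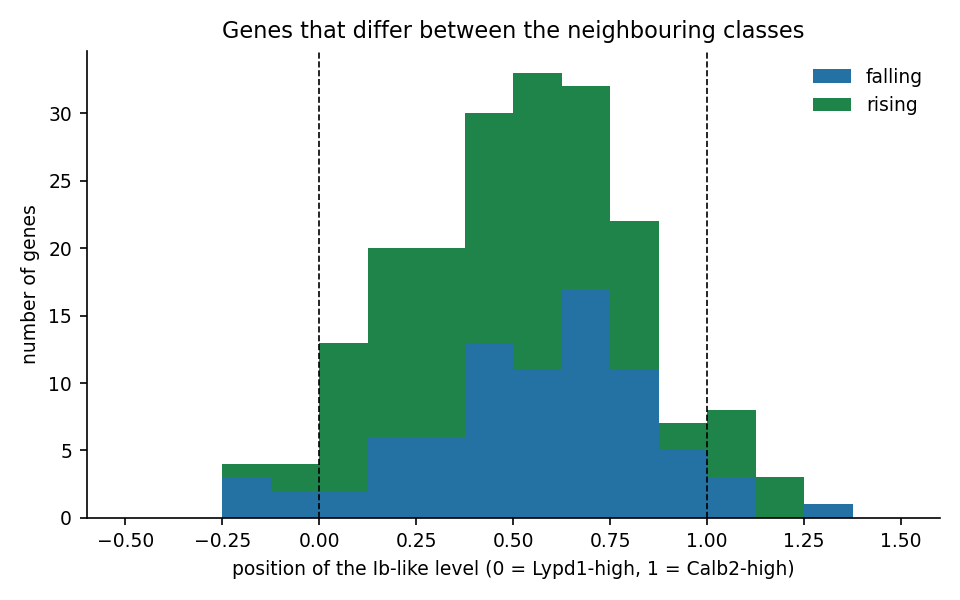
Number of genes (vertical) by the position of the Ib-like level between the neighbours (horizontal, 0 for the Lypd1-high and 1 for the Calb2-high level, from log2(CPM + 1) of pooled CPM), for the 80 falling genes in blue with the rising genes stacked on top in green. Most genes lie between the dashed lines, with a broad peak near the centre. Calb2 and Lypd1, which chose the cells, are included.

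Shared genes were sought only among the genes given a position above, whose neighbours differed by a log2 fold of at least 2. Such a gene was taken as shared with a neighbour when the Ib-like level was within a log2 fold of 0.5 of that neighbour. It also had to meet the limits against the other neighbour. With Lypd1-high cells 20 genes were high in both. Ntng1, the axon guidance molecule netrin G1, ranged from 27.7 to 736 CPM with a median of 208.2 CPM and a count in 72 of 72 Ib-like cells. Lypd1-high cells had a median of 309 CPM and a count in 44 of 44, and Calb2-high cells a count in 12 of 62. The pooled levels were 229.7, 309.8 and 5.22 CPM, so that the Ib-like cells lay 5.21 above Calb2-high cells on the log2 scale and -0.43 from Lypd1-high cells. The log2 fold over Calb2-high cells was 7.37 at P26 and 3.62 at P27, where the Calb2-high level was 22.6 CPM in Apex and 0.6998 CPM in Middle cells. Ntng1 lies at chr3:109780040-110144011 on the minus strand. Ryr3, an intracellular calcium release channel, was 32.1 CPM in Ib-like, 33.4 CPM in Lypd1-high and 2.25 CPM in Calb2-high cells. Robo2, a Slit receptor, was 12.6, 17.6 and 1.86 CPM in the same order.

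Another 7 genes were low in both Ib-like and Lypd1-high cells. Gnao1, the G protein alpha subunit of neurons, was 16.2 CPM in Ib-like and 11.4 CPM in Lypd1-high cells, against 92.4 CPM in Calb2-high cells. With Calb2-high cells the Ib-like cells shared 10 genes that were high and 10 that were low. Cdh9, a classical cadherin, was 66.4 CPM in Ib-like, 92.7 CPM in Calb2-high and 14.9 CPM in Lypd1-high cells. Among the genes low in both was Cplx2, a complexin that binds the vesicle fusion machinery. Grm8, a glutamate receptor and a marker of Ic neurons, was 0.589 CPM in Ib-like, 1.95 CPM in Calb2-high and 147.6 CPM in Lypd1-high cells. Pcdh20 was 15.8, 138.6 and 9.82 CPM in the same order. Neither Grm8 nor Pcdh20 was within the limit for a shared gene.

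The lists of functional groups were read in the same way, against both neighbours. Their counts stand beside 1.95% higher and 1.29% lower of all measured genes against Calb2-high cells, and 1.57% and 1.91% against Lypd1-high cells. Some lists hold markers of the classes, which are named with them. Of voltage-gated potassium channel genes, 5 of 22 measured were higher than in Calb2-high cells and none lower, while against Lypd1-high cells 2 of 23 were higher and 1 lower. The Ib marker Lrrc52 is counted as higher in both. Kcnab1, a channel beta subunit, was 84.6, 31.8 and 97.9 CPM. Kcnd2, an A-type channel, was 11.4 CPM in Ib-like and 4.44 CPM in Lypd1-high cells and had no count in Calb2-high cells. Kcnc2, a fast delayed rectifier, was counted in 1 of 72 Ib-like cells, 0.0154 CPM, against 7.67 and 28.0 CPM in Calb2-high and Lypd1-high cells. Of sodium, HCN and calcium channel genes, 2 of 22 were higher and 1 lower than in Calb2-high cells, and none of 20 met the limits against Lypd1-high cells. Scn2b, a sodium channel beta subunit, was 66.4 CPM, against 7.89 and 130 CPM. The Th-positive cell had 1511 CPM of Scn2b, against a highest of 437 CPM and a median of 10.7 CPM in the other Ib-like cells. Scn2b was still graded without that cell. Cacna1b, the N-type calcium channel, was 2.37 CPM, against 22.6 and 0.00833 CPM.

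Of 30 measured axon guidance genes, 6 were higher than in Calb2-high cells, none was lower and 24 did not meet the limits, with a list median of 0.38 on the log2 scale. Against Lypd1-high cells 1 of 32 was higher and 6 were lower, with a median of -0.04. Sema3a, a secreted semaphorin, was 26.0 CPM in Ib-like cells, 1.83 CPM in Calb2-high and 53.4 CPM in Lypd1-high cells. Dcc, a netrin receptor, was 10.1, 1.24 and 30.9 CPM, and Robo1, a Slit receptor, 35.2, 15.4 and 60.1 CPM. Sema3d went the other way against Lypd1-high cells, at 36.7 CPM against 7.92 CPM, with 19.97 CPM in Calb2-high cells. Of cell adhesion genes, 4 of 44 were higher and 2 lower than in Calb2-high cells, and 3 of 48 were higher and 3 lower than in Lypd1-high cells.

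Of 41 transcription factor genes, 5 were higher and 2 lower than in Calb2-high cells, and 1 was higher and 4 lower than in Lypd1-high cells. The class markers Runx1, Pou4f1 and Rxrg are among those counted. Cbfb, the partner subunit of Runx factors, was 90.8 CPM in Ib-like, 33.3 CPM in Calb2-high and 97.2 CPM in Lypd1-high cells, the same order as Runx1. Casz1, a zinc finger factor, was 46.4 CPM, against 33.6 CPM in Calb2-high and 18.7 CPM in Lypd1-high cells.

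Of 20 calcium-binding genes, 4 were higher and 1 lower than in Calb2-high cells. Against Lypd1-high cells 2 were higher and 2 lower, with Calb1 and Calb2 counted in both comparisons. The 1 gene lower than in Calb2-high cells was Calb2, which chose the cells, so its place in these counts is not a finding. Kcnip2, a calcium sensor that tunes A-type potassium currents, was 105.1 CPM in Ib-like, 26.9 CPM in Calb2-high and 171 CPM in Lypd1-high cells. Of G protein signalling genes, 3 of 24 were higher and 1 lower than in Calb2-high cells, and 2 of 24 were lower than in Lypd1-high cells. Rgs12, a regulator of G protein signalling, was 14.3, 1.29 and 50.8 CPM in Ib-like, Calb2-high and Lypd1-high cells. Of neurotrophin genes none of 15 met the limits against Calb2-high cells and 2 were higher than in Lypd1-high cells. These were Fgf1, a growth factor made by spiral ganglion neurons, at 464 CPM against 217.95 CPM, and Ngfr, the p75 neurotrophin receptor, whose log2 fold was 1.04 with the Th-positive cell and 0.85 without it. Synaptic vesicle genes were nearly level, with 1 of 29 higher than in Calb2-high cells and 1 of 30 lower than in Lypd1-high cells. Of 38 mitochondrial genes none met the limits against either neighbour, with medians of -0.10 and 0.04 on the log2 scale.

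Among themselves, the Ib-like cells varied much in immediate-early genes, which neurons switch on after activity. Of genes counted in at least 75% of them, Fos had an SD of log2(CPM + 1) of 3.98, Btg2 of 3.93 and Egr1 of 3.57. Fos varied as much in the neighbours, with SDs of 4.05 and 4.48. Of the markers, Calb1 and Ttn had SDs of 3.43 and 3.17, Lrrc52 of 2.59 and Runx1 of 1.43. At 10 CPM, 40 cells had Calb1 and Ttn, 11 had Calb1 without Ttn, 14 had Ttn without Calb1 and 7 had neither. Spearman's rho over the 72 cells was 0.14 for Calb1 and Ttn, -0.15 for Calb1 and Lrrc52, 0.08 for Ttn and Lrrc52 and 0.29 for Runx1 and Ttn, all given as description.

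Genes that differed between the neighbours were also set against Calb2 within the Ib-like range, which the rule cut at both ends. Over the 72 cells, Spearman's rho with Calb2 had a median of 0.034 for 79 genes that fell between the neighbours and of -0.124 for 114 that rose. It was above 0 for 65.8% of the former and 17.5% of the latter, against 50.6% of all 8957 genes, whose median was 0.002. The points share depth, age and location, and these weak values are no finding about any single gene.

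Some genes differed with location among the Ib-like cells. Lrrc52 was highest in the Apex and lowest in the Base. At P26 its pooled level was 37.6 CPM in the Apex (8 of 9 cells with 10 CPM), 10.5 CPM in the Middle (5 of 16) and 0.793 CPM in the Base (0 of 10). At P27 it was 50.3 CPM in the Apex (12 of 14) and 21.3 CPM in the Middle (13 of 22), the same order. The highest Base cell, 9.98 CPM, lay below the Apex medians of 34.4 and 56.4 CPM. Kcnip2 ran the other way, with 55.3, 116.8 and 205.7 CPM in Apex, Middle and Base at P26 and 46.98 and 106 CPM in Apex and Middle at P27. Ttn and Calb1 had no such order: Ttn was 216.8, 465 and 71.5 CPM at P26 and 359 and 192.3 CPM at P27, and Calb1 was 193, 287 and 308 CPM and then 78.5 and 279 CPM. Calb2, which chose the cells, was also uneven, at 3188, 2636 and 1391 CPM at P26 and 2573 and 1671 CPM at P27, and its part in these differences was not tested. The 10 P26 Base cells also had low spike-in shares, at most 1.79% against a median of 3.29% over all Ib-like cells. The part of this technical difference was not tested either.

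The share of Ib-like cells differed between the sets without a common order along the cochlea. At P26 it was 9 of 12 cells in the Apex (75%, exact 95% interval 42.8 to 94.5%), 16 of 52 in the Middle (30.8%, 18.7 to 45.1%) and 10 of 41 in the Base (24.4%, 12.4 to 40.3%). At P27 it was 14 of 44 in the Apex (31.8%, 18.6 to 47.6%) and 22 of 34 in the Middle (64.7%, 46.5 to 80.3%). The Apex was thus above the Middle at P26 and below it at P27. No animals are named, the cells were picked by hand, and 1 P25 Base cell completes the 72.

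**Figure D5:**
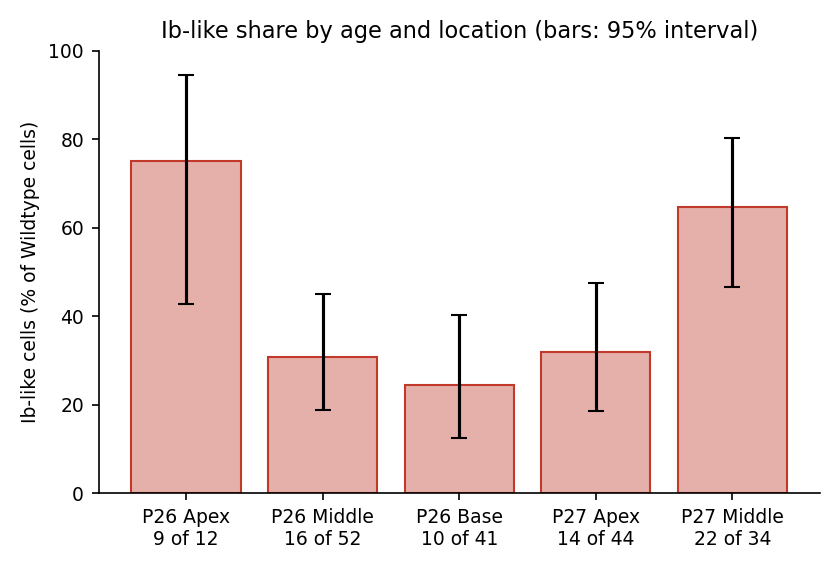
Share of Wildtype cells that met the Ib-like limits (vertical, %) in the 5 sets with the same age and location, with exact 95% binomial intervals for counting error. The highest shares were 75% of 12 P26 Apex cells and 64.7% of 34 P27 Middle cells, and the lowest was 24.4% of 41 P26 Base cells.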

How the data were processed

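Expression was measured in single neurons, of which the Wildtype cells, 72 Ib-like and 114 others, enter the comparisons. The authors deposited whole-number counts of reads per gene for every cell. The submitters' processing notes list genome build mm10 and, as tools, STAR 2.4.0, Trimmomatic 0.33, Subread 1.4.6 with featureCounts, Seurat 1.4.0.12 and edgeR 3.14.0, without saying what each was used for. Strand use, annotation and the handling of multi-mapped reads were not given in the sources used here. A deposited table of normalized values was not used. The counts covered 24491 genes, of which 7266 had 0 counts in every cell, together with 92 spike-in controls and 1 reporter. The spike-ins and the reporter were left out of totals, and the spike-ins took a median of 3.29% of the counts of Ib-like cells.

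CPM was computed here from the sum over genes. For a class, summed counts over its cells were converted to CPM, with exact Poisson intervals, and shares of cells carry exact Clopper-Pearson intervals, both at 95%. Log2 folds had 1 CPM added to each class. A gene was measured when it had 10 CPM in a class compared. No doublet caller was run on the hand-picked cells, and all were kept. The highest correlation between a pair of Ib-like cells was 0.865. Ages were P25, P26 and P27.

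The named genes were the 15 largest above both neighbours by the smaller fold, up to 8 below both, 8 graded on each side, 8 per side against all other Wildtype cells, the markers, and members of 16 gene lists past the limits. Genes used for sexing and gene models without a symbol of known meaning were only counted. Values of a few further genes are not reported here. Rbfox3, Pcsk2, Elmo1, Cdk15 and the variable genes Fos, Btg2 and Egr1 were added after their values were seen. The Ib-like cells, markers and lists were chosen with earlier results of these data known, so nothing here is independent support for them.

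GENCODE M21 gave gene positions and overlapping exons, and Spry3 and Ssfa2 were not matched to 1 gene. Promoters came from RefSeq (GRCm38.p6). Calculations used scipy 1.17.1, pandas 2.3.3 and numpy 2.4.6 in Python 3.11.15, with plots from matplotlib 3.10.9. R 4.3.3 with edgeR 4.0.16 and DESeq2 1.42.0 gave alternative scalings only.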

Additional observations from a re-analysis of the deposited data

Results flagged for a closer look

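In groups of 4 to 10 Ib-like cells, 14 checks were made for a cell far from the others, and 2 found one. Chance gives about 1 in 20. Among the 10 P26 Base cells, the highest share of spike-in counts, 1.79%, lay far above the rest. The same cell had the highest Lrrc52 level of the set, 3.46 on the log2(CPM + 1) scale, far above the others, most of which had no count. Whether this is technical was not tested.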

How the results depend on the processing

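The limits were recomputed under 22 other settings, 1 of them (without the Th-positive cell) chosen after seeing the data. Leaving out both cells without Ib markers, also chosen after seeing the data, was tried for the counts of genes, which stayed within 1.5 times those reported. For each named gene and comparison past the limits, the direction was kept in 4333 of 4334 values and the limits were missed in 628. The exception was Plxnc1 against all other Wildtype cells, whose log2 fold was 0.0199 among Middle cells. No paired analysis was possible because each cell has its own number and the classes share none. Each class is 1 sample, so how these numbers would vary between animals is unknown. Counts of genes are given below as a percentage of the genes measured under the reported limits, whatever number each setting measured. The order is fixed: higher and lower than all other Wildtype cells, than Calb2-high cells, and than Lypd1-high cells. The reported values were 0.549, 1.15, 1.95, 1.29, 1.57 and 1.91%. They were 0.149, 0.446, 0.864, 0.495, 0.538 and 0.824% with 10 CPM added instead of 1. With at least 50 CPM and 50% of cells they were 0.149, 0.183, 0.622, 0.369, 0.309 and 0.503%. Of the fewer genes measured in that setting they were 0.328, 0.404, 1.36, 0.803, 0.669 and 1.09%. Among P26 cells they were 1.1, 2.36, 3.04, 2.68, 3.24 and 4.1%, and among P27 cells 1.53, 2.26, 4.1, 2.45, 3.73 and 3.6%. Among Middle cells they were 1.02, 1.87, 3.13, 2.69, 2.85 and 3.4%, and in cells with less than 2% spike-ins 1.76, 2.31, 4.05, 2.79, 3.95 and 3.82%. The settings by age, location and spike-in share use fewer cells, and those of 1 age also drop the repeat at both ages. In all cells without the repeat the values were 0.56, 1.25, 2.05, 1.46, 1.76 and 2.16%. With no minimum level, 2.06% were lower than all other Wildtype cells, 2.19% lower than Calb2-high cells and 2.7% higher than Lypd1-high cells. Of the more numerous genes measured in that setting, these were 1.06, 1.17 and 1.46%. The 16 genes above and 6 below both neighbours became 7 and 2 with 10 CPM added, 4 and 2 with the higher minimum, 43 and 43 at P26, 57 and 35 at P27, 34 and 31 in the Middle, and 51 and 39 with few spike-ins. With no minimum 15 were below both, and 10 without the P27 Middle cells, and 25 were above both without the P26 Middle cells. The 48 falling and 64 rising graded genes became 19 and 27 with 10 CPM added and 16 and 26 with the higher minimum. An upper Calb2 limit of 3000 CPM gave 54 cells instead of 72 and 9 genes above both neighbours, of which 6 were among the 16 (Calb1, Chrdl1, Htr2c, Ppm1d, Tmem196 and Ttn). Anxa5, Edil3, Lrrc52 and Zfp52 were not. Without the Th-positive cell Khdrbs2 and Rgs10 against Calb2-high cells and Sema3a against Lypd1-high cells also missed the limits, with log2 folds of 3.02, 0.98 and -0.998. Low genes found in few cells are limited by counting and dropout.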

Other observations

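The limits were also applied to the 40 Vglut3-/- neurons, all labelled Middle, and 7 met them (3 of P25, 1 of P26 and 3 of P27). In these 7 cells Calb1 was present throughout, at 528 CPM with a count in 7 of 7 cells, and Runx1 was 152.4 CPM and Pou4f1 147.6 CPM. Ttn was 1.00 CPM with a count in 1 of 7 cells, a log2 fold of -7.24 against the Wildtype Ib-like cells of the Middle. Edil3 was 46.6 CPM (log2 fold -2.68) and Lrrc52 4.47 CPM (-1.71), and Adora1 had no count. Of the 15 named genes above both neighbours, 11 were lower in the Vglut3-/- cells, 7 of them by a log2 fold of at least 1. Calb1, Spry3, Htr2c and Ankrd16 were not lower (log2 folds 0.90, 0.45, 0.24 and 0.02). The share of all measured genes that were lower is not given. All 15 had been chosen for their high level in Wildtype cells, the Middle ones included, so lower values elsewhere follow in part from the choice. These are 7 cells from an unknown number of animals with another mix of ages, and the difference was not tested.

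Among the Wildtype cells outside all 3 classes, 8 in number, Th reached 10 CPM in 4, Pcdh20 in 6, Rxrg in 4 and Runx1 in 2, and Calb1 and Lrrc52 in 0.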
